A study of Homo sapiens with 24 samples.

Results

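The genes of the eukaryotic translation initiation factors were followed in A2780 cells, a human ovarian cancer line that is sensitive to platinum, and in A2780cis, its platinum-resistant isogenic counterpart, before and after exposure to 5-FdU-ECyd. The members are the autosomal or X-linked protein-coding genes whose symbol begins with EIF followed by a digit from 1 to 6. They number 55 of the 63299 genes in the deposited count table and of the 19629 that are protein-coding, and 53 of them passed the filter on low counts. Whole transcriptome sequencing gave 24 libraries in 8 groups of 3. In each line, the groups were control cells in standard growth medium and cells in medium with 1 µM 5-FdU-ECyd, harvested after 6 h or 12 h. 5-FdU-ECyd is a duplex-prodrug that joins the nucleoside analogues 5-FdU, which acts on DNA synthesis, and ECyd, which acts on RNA synthesis. A2780cis is 1 resistant line whose medium was supplemented with cisplatin at intervals to keep its resistance, and A2780cis flasks were seeded with more cells than A2780 flasks. The study calls the libraries of a group biological replicates, but neither its methods nor the labels say how their cultures were kept apart. The p-values therefore measure the spread between libraries of the same group, estimated over all 8 groups.

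Initiation brings a ribosome to the start codon of an mRNA. eIF2, loaded with GTP and the initiator tRNA, joins the small ribosomal subunit together with eIF1, eIF1A, eIF3 and eIF5, while eIF4F (the cap binding eIF4E, the scaffold eIF4G and the helicase eIF4A) recruits the capped mRNA and eIF5B joins the large subunit. Control acts mainly at eIF2, whose alpha subunit is phosphorylated by stress kinases and whose GDP is exchanged by eIF2B, and at eIF4E, which is held by the 4E-BPs, so that mRNA levels of these genes are only 1 layer of their control and protein was not measured here.

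Between 11077368 and 21901406 reads per library were counted, and the members took 1.04% to 1.56% of them. Of 8 genes chosen as markers of ovarian carcinoma cells, KRT18 reached 28.4 and KRT8 6.80 CPM (the usual unit of counts scaled to a fixed library depth), EPCAM stayed at or below 1.96 CPM, and CDH1, MUC16, PAX8, WT1 and KRT7 had at most 2 counts in any library. Of 9 markers of other cell types, PTPRC, CD3E, PECAM1, VWF and ALB had at most 3 counts, while COL1A2 reached 60.7 CPM, COL1A1 16.03, DCN 12.3 and CD68 8.38. In bulk samples, fewer cells and less RNA per cell cannot be told apart, and CPM measure a share of each library.

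After 12 h of treatment most initiation factor genes had fallen in both lines. A gene was said to rise or fall where the quasi-likelihood test of edgeR, on counts scaled by TMM factors, gave an adjusted p of at most 0.05, and errors of log2 fold changes are SE. In A2780, 39 of 53 members fell (73.6%, against 26.1% of all 20240 genes tested) and 3 rose (28.6% of all genes). In A2780cis, 33 fell (62.3%, against 28.9% of all genes) and 3 rose (31% of all genes). The members had a median log2 fold change (log2 FC) of -0.47 for A2780 and -0.42 for A2780cis, where the median of all genes was 0.02 and 0.04. Of the members, 28 fell in both lines (52.8%, against 18.4% of all genes). In A2780 alone 11 passed the test as lower (20.8%), and in A2780cis alone 5 (9.43%). Of all 20240 genes, 5291 were lower in A2780, 5857 in A2780cis and 3726 in both. EIF2AK3 was the 1 member with calls of opposite sign. The counts of lower members include EIF2S3B and EIF3CL in both lines and EIF5AL1 in A2780, copies that share reads with EIF2S3, EIF3C and EIF5A. EIF1, EIF1AD, EIF2B1, EIF2S1 and EIF5A2 passed the test in neither line. When libraries were scaled by their totals, without TMM factors, the median of all genes became 0.24 in A2780 and 0.15 in A2780cis, and that of the members -0.25 and -0.31. The share of higher among all calls in A2780 was then 70.7%, against 52.3% with TMM. With that scaling 28 members were lower and 8 higher at 12 h in A2780, and 32 lower and 7 higher in A2780cis. The 11 decreases of A2780 that were not called with that scaling were those of EIF2B3, EIF3D, EIF3G, EIF3I, EIF3K, EIF3M, EIF4E2, EIF4EBP3, EIF4H, EIF5A and EIF5AL1, and in A2780cis that of EIF3F was not called. The 3 members higher in A2780 depended on single libraries, with 0 left without control replicate 1 or treated replicate 1 and 1 left without control replicate 2 or treated replicate 2.

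At 6 h fewer members had changed. In A2780, 7 fell (13.2%, against 13.4% of all genes) and 4 rose (7.55%, against 16%), and the median log2 FC of the members was -0.02. In A2780cis, 13 fell (24.5%, against 16.3%) and 0 rose (against 14.4%; 0 with DESeq2 too), with a median of -0.14. EIF2D and EIF4EBP1, the 2 members with a positive difference and an unadjusted p under 0.05 there, had adjusted p of 0.115 and 0.0734. Library size alone gave 4 higher members there, and the fit without control replicate 3 gave 1. The 7 members that fell at 6 h in A2780 fell in A2780cis as well and again at 12 h in both lines (13.2%, against 6.76% of all genes). They were EIF2A, EIF3A, EIF4A2, EIF4B, EIF4E, EIF4ENIF1 and EIF4G3, 4 of them genes of eIF4F and its helpers. EIF3G, EIF4H and EIF5A had risen in A2780 at 6 h and fell at 12 h, the later decrease not being called with library size alone (adjusted p = 0.0714, 0.318 and 0.246). The controls of EIF3G and EIF5A were themselves higher at 12 h than at 6 h. The early increases with treatment were small and rested on single libraries. The 4 increases in A2780 at 6 h became 1 without control replicate 1, treated replicate 1 or treated replicate 2, and 2 without control replicate 3 or treated replicate 3.

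**Figure D1:**
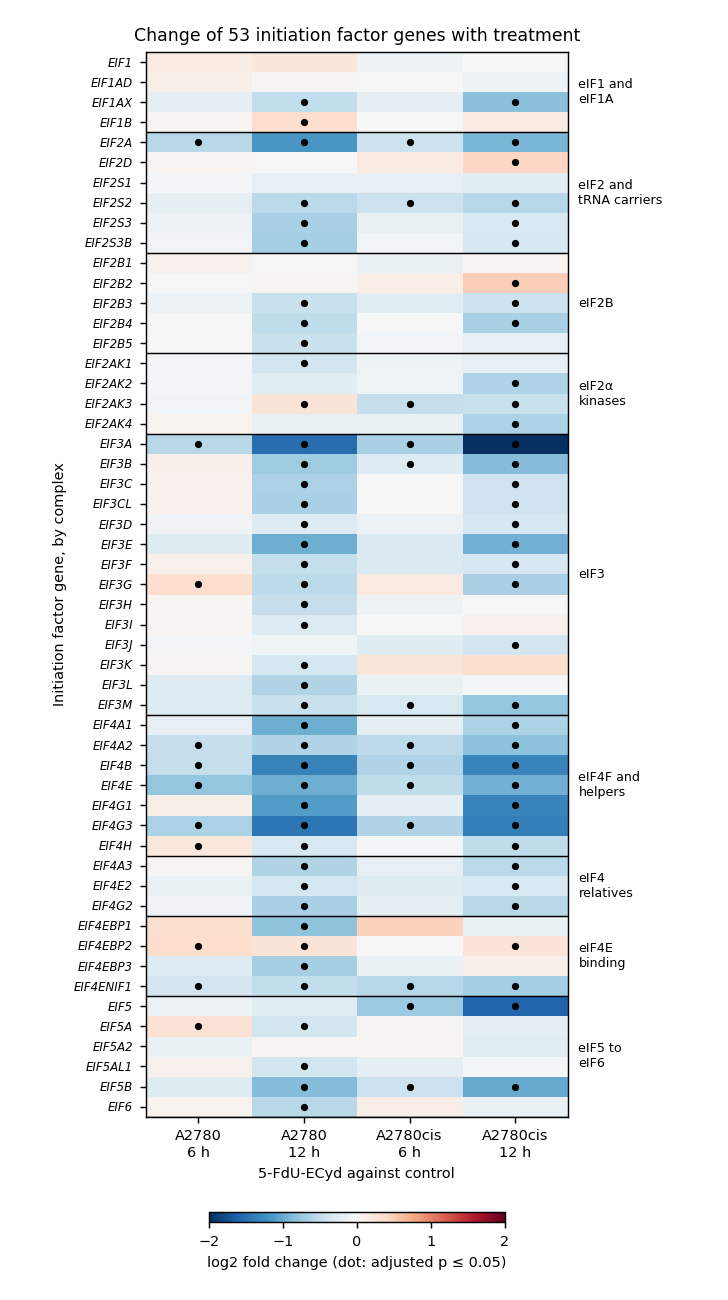
Colour gives the log2 fold change of 5-FdU-ECyd against control for the 53 initiation factor genes tested (rows, by complex) in each line and time (columns), and a dot marks an adjusted p of at most 0.05. At 12 h the eIF4F and eIF3 blocks are mostly blue in both lines, and EIF5 is dark in A2780cis alone.

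Of the 4 genes grouped with eIF1 and eIF1A, factors that help the ribosome find the start codon, 1 fell and 1 rose in A2780 at 12 h. In A2780cis 1 fell. Each count is 25% of the group, near the shares of all genes (26.1% lower and 28.6% higher in A2780, 28.9% lower in A2780cis). EIF1AD was placed in this group by its symbol, and its role was not examined. EIF1, which guards start codon choice, was measured at 287, 295 and 339 CPM in the A2780 controls of 12 h and 387, 355 and 339 CPM after treatment, and its difference did not pass the test in either line (0.23 and 0.00 log2 FC). EIF1AX, which encodes the eIF1A protein, fell at 12 h in both lines. In A2780cis its level was 339, 306 and 272 CPM in the controls and 204, 169.5 and 138 after treatment (log2 FC = -0.84 ± 0.12, adjusted p = 2.26e-06), with no overlap between the groups. In A2780 the change was log2 FC = -0.50 ± 0.12, adjusted p = 0.00136. EIF1B, a close paralog of EIF1, rose in A2780 from 25.5, 28.0 and 28.6 to 40.6, 33.5 and 29.3 CPM (log2 FC = 0.33 ± 0.12, adjusted p = 0.0189). The highest treated library was replicate 1, and without it the adjusted p was 0.201, without control replicate 1 0.105, and without the filter on low counts 0.0631.

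Of the genes for eIF2 and the other proteins that carry the initiator tRNA, 4 of 6 fell in each line at 12 h. This is 66.7%, against 26.1% of all genes in A2780 and 28.9% in A2780cis. EIF2A, a separate protein that can deliver initiator tRNA and is not the alpha subunit of eIF2, had the largest change of this group. In A2780 its level was 153, 147 and 119 CPM in controls and 72.9, 58.2 and 56.0 in treated cells of 12 h (log2 FC = -1.17 ± 0.13, adjusted p = 2.64e-08). In A2780cis it was 183, 159.6 and 149 and 97.6, 72.7 and 91.0 (log2 FC = -0.91 ± 0.13, adjusted p = 8.26e-07). The groups did not overlap in either line, and EIF2A was also lower at 6 h (-0.55 ± 0.13 and -0.43 ± 0.12, adjusted p = 0.00172 and 0.0103), where the A2780cis call was lost without control replicate 3 (adjusted p = 0.0634) or treated replicate 3 (0.0663). The 3 subunits of eIF2 differed among themselves. EIF2S2, the beta subunit, fell in A2780 (log2 FC = -0.53 ± 0.11, adjusted p = 0.000229) and in A2780cis (log2 FC = -0.58 ± 0.11, adjusted p = 7.9e-05). EIF2S3, the gamma subunit that binds GTP, fell in A2780 (log2 FC -0.65 ± 0.09) and in A2780cis (-0.33 ± 0.08). EIF2S1, the alpha subunit that the stress kinases phosphorylate, did not pass the test at 12 h in A2780 (-0.17 ± 0.11, adjusted p = 0.209) or A2780cis (-0.23 ± 0.11, adjusted p = 0.0786). EIF2D, which can also place initiator tRNA and acts in recycling, rose in A2780cis from 101, 88.8 and 91.5 to 122, 114 and 136 CPM (log2 FC = 0.41 ± 0.08, adjusted p = 0.000161), while in A2780 the log2 FC was -0.01 ± 0.08. EIF2S3B is a near-identical copy of EIF2S3, shares its reads in part and followed it (-0.67 and -0.36), so it is not separate evidence.

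The 5 subunits of eIF2B, the exchange factor of eIF2, moved apart. EIF2B4 (delta) fell at 12 h in A2780, from 66.1, 67.2 and 73.4 to 53.7, 49.6 and 42.4 CPM (log2 FC = -0.51 ± 0.10, adjusted p = 9.96e-05). In A2780cis it fell from 86.8, 83.5 and 87.2 to 54.0, 46.9 and 62.8 CPM (log2 FC = -0.65 ± 0.10, adjusted p = 2.63e-06). EIF2B3 (gamma) fell in both lines (-0.45 ± 0.13 and -0.43 ± 0.14, adjusted p = 0.00509 and 0.00804), its A2780cis call being lost without treated replicate 2 (adjusted p = 0.0603) and its A2780 call with library size alone (0.0832). EIF2B5, the catalytic epsilon subunit, passed the test in A2780 alone (-0.44 ± 0.09 against -0.16 ± 0.08 in A2780cis, adjusted p of the difference between the lines 0.0925). EIF2B2 (beta) went the other way in A2780cis, where it rose from 61.5, 53.3 and 57.4 to 85.0, 71.5 and 86.6 CPM (log2 FC = 0.50 ± 0.09, adjusted p = 5.11e-05), and stayed at 60.6, 58.8 and 62.0 against 61.0, 63.4 and 59.9 CPM in A2780. Genes on the opposite strand cover 23.6% of EIF2B2 exon bases. A lncRNA over 3.4% of these bases was counted at 13.3% of the EIF2B2 level. Its log2 FC at 12 h was -0.08 in A2780 and 0.50 in A2780cis. The strand setting of the counting is not given in the sources used here. EIF2B1, the alpha subunit, had log2 FC of 0.01 ± 0.08 and 0.04 ± 0.08. None of the 5 passed the test at 6 h.

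The 4 kinases that phosphorylate the alpha subunit of eIF2 include 2, EIF2AK3 and EIF2AK4, whose change at 12 h differed between the lines by the interaction test. EIF2AK3 encodes PERK, the sensor of the endoplasmic reticulum. In A2780 it was measured at 19.1, 19.2 and 19.2 CPM in controls and 23.96, 23.6 and 21.4 CPM after 12 h (log2 FC = 0.26 ± 0.11, adjusted p = 0.0392). In A2780cis it was lower, with 25.4, 26.3 and 26.4 CPM in controls and 22.7, 17.9 and 17.0 CPM after treatment (log2 FC = -0.44 ± 0.11, adjusted p = 0.000917), and already at 6 h (-0.46 ± 0.11, adjusted p = 0.00204). The treated and control libraries did not overlap in any of these 3 pairs. The A2780 increase was lost without any 1 of the 3 controls or without treated replicate 1 or 2 (adjusted p of 0.106, 0.0903 and 0.0860 without control replicates 1 to 3, 0.132 and 0.110 without treated replicates 1 and 2), and without the filter on low counts (0.204). A lncRNA on the opposite strand covers 3.77% of EIF2AK3 exon bases and was counted at 23.1% of its level. The log2 FC of this lncRNA at 12 h was 0.32 in A2780 and -0.36 in A2780cis. EIF2AK4 encodes GCN2, the sensor of uncharged tRNA, and fell in A2780cis from 112, 116 and 108 to 79.5, 71.7 and 66.3 CPM (log2 FC = -0.63 ± 0.08, adjusted p = 3.01e-07), against -0.14 ± 0.08 in A2780. EIF2AK2 encodes PKR, the sensor of double-stranded RNA, and fell in A2780cis (log2 FC = -0.61 ± 0.13, adjusted p = 0.00022), where treated replicate 3 was far below the others (97.3, 93.4 and 59.1 CPM). The log2 FC of EIF2AK2 in A2780 was -0.22 ± 0.13, and the difference between the lines did not pass the test (adjusted p = 0.117). EIF2AK1 encodes HRI, the kinase named for its response to heme, and passed the test in A2780 alone (-0.36 ± 0.08, against -0.16 ± 0.08 in A2780cis, adjusted p of the difference 0.175).

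Of the 14 genes of eIF3, the scaffold of the small subunit, 13 fell at 12 h in A2780 (92.9%, against 26.1% of all genes). In A2780cis 10 fell (71.4%, against 28.9% of all genes). The medians of the 14 were -0.50 and -0.39 log2 FC. Both counts include EIF3CL, which shares the reads of EIF3C. With library size alone, without TMM factors, 8 eIF3 genes were called lower in A2780 and 9 in A2780cis. EIF3A, its largest subunit, fell most of all members in both lines. In A2780 its level was 747.46, 729 and 622 CPM in the controls of 12 h and 264, 234 and 230.2 after treatment, 0.347 times the control level (log2 FC = -1.53 ± 0.09, adjusted p = 4.7e-13). In A2780cis it was 526, 498 and 487 and 132, 128 and 121 CPM, 0.252 times the control level (log2 FC = -1.99 ± 0.09, adjusted p = 5.43e-15). Every treated library lay far below every control. At 6 h EIF3A had already fallen, to 472, 532 and 496 from 743.87, 736 and 715 CPM in A2780 (-0.55 ± 0.09, adjusted p = 5.4e-05) and to 407, 359 and 358 from 566, 636 and 554 CPM in A2780cis (-0.64 ± 0.09, adjusted p = 5.81e-06). EIF3A lies on the minus strand at chromosome 10, 119033670 to 119080817 (GRCh38), with an exon overlap of under 1% with another gene.

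The other eIF3 subunits had smaller changes. EIF3B, which forms the core with EIF3A, fell in A2780 and A2780cis (log2 FC -0.71 ± 0.09 and -0.86 ± 0.09, adjusted p = 3.63e-07 and 1.19e-08). EIF3E fell from 549, 538 and 427 to 292, 240.1 and 241 CPM in A2780 (log2 FC = -0.97 ± 0.13, adjusted p = 1.02e-06) and from 833, 699.8 and 637 to 406, 306 and 398 CPM in A2780cis (log2 FC = -0.97 ± 0.13, adjusted p = 8.16e-07). EIF3C, EIF3F, EIF3G and EIF3M also fell in both lines, with -0.63, -0.47, -0.52 and -0.45 log2 FC in A2780 and -0.42, -0.34, -0.64 and -0.77 in A2780cis. The EIF3G controls were themselves higher at 12 h than at 6 h (0.55 in A2780 and 0.83 in A2780cis), as were those of EIF3C. Part of their distance at 12 h therefore lies in the controls. With library size alone the A2780 calls of EIF3G (adjusted p = 0.0714) and EIF3M (0.0571) were lost, and the A2780cis call of EIF3F (0.0539), which was also lost without treated replicate 2 (0.0935). EIF3CL is a near-identical copy of EIF3C that shares its reads, and the pair of values cannot be told apart. EIF3D, the subunit with a cap binding activity of its own, changed little though past the threshold (-0.25 ± 0.09 and -0.35 ± 0.09), and in A2780 it was not called with library size alone (log2 FC -0.03, adjusted p = 0.704) or without treated replicate 2 (0.0507) or 3 (0.0633). EIF3H, EIF3L and EIF3K passed the test as lower in A2780 alone, and their change differed between the lines. EIF3H was measured at 257, 259 and 231 CPM in A2780 controls and 197, 172 and 173 after treatment, against 390.1, 359 and 336 and 389, 304 and 398 in A2780cis. EIF3L was measured at 435, 428 and 459 and 293, 286 and 288 CPM in A2780, against 535, 451 and 445 and 494, 379 and 517 in A2780cis. EIF3K, the smallest subunit, was measured at 190.3, 179 and 188 and 149, 142 and 145 CPM in A2780, against 177, 155 and 155 and 209, 153 and 244 in A2780cis. In these 3 genes the A2780 groups did not overlap and the A2780cis groups did. EIF3K passed the test in A2780 with an adjusted p of 0.0389, which rose above 0.05 without any library but treated replicate 1 (0.0533 to 0.0869) and to 0.39 with library size alone. EIF3I passed in A2780 as well (-0.28 ± 0.10, against 0.08 ± 0.10 in A2780cis), but not without control replicate 3 (adjusted p = 0.0801) or treated replicates 2 (0.0572) or 3 (0.0893), or with library size alone (0.518). EIF3J, a loosely bound subunit, fell in A2780cis alone (-0.36 ± 0.11, against -0.09 ± 0.11 in A2780), and the difference between the lines did not pass the test (adjusted p = 0.21). Reads of EIF3L can also fall in a lncRNA on the same strand that covers 41.1% of its exon bases and was counted at 43.1% of its level.

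The unequal decrease left EIF3A low beside its partners. Per kilobase of its canonical transcript, the ratio of EIF3A to the median of the other 12 eIF3 subunit genes (EIF3CL left out) was 1.2, 1.11 and 0.946 in the A2780 controls of 12 h and 0.575, 0.563 and 0.576 in the treated libraries. In A2780cis it was 0.686, 0.58 and 0.523 in controls and 0.231, 0.239 and 0.202 after treatment. The groups did not overlap at either time in either line. EIF3A was singled out as the member that fell most, so this ratio is a description and no test of it is used.

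**Figure D2:**
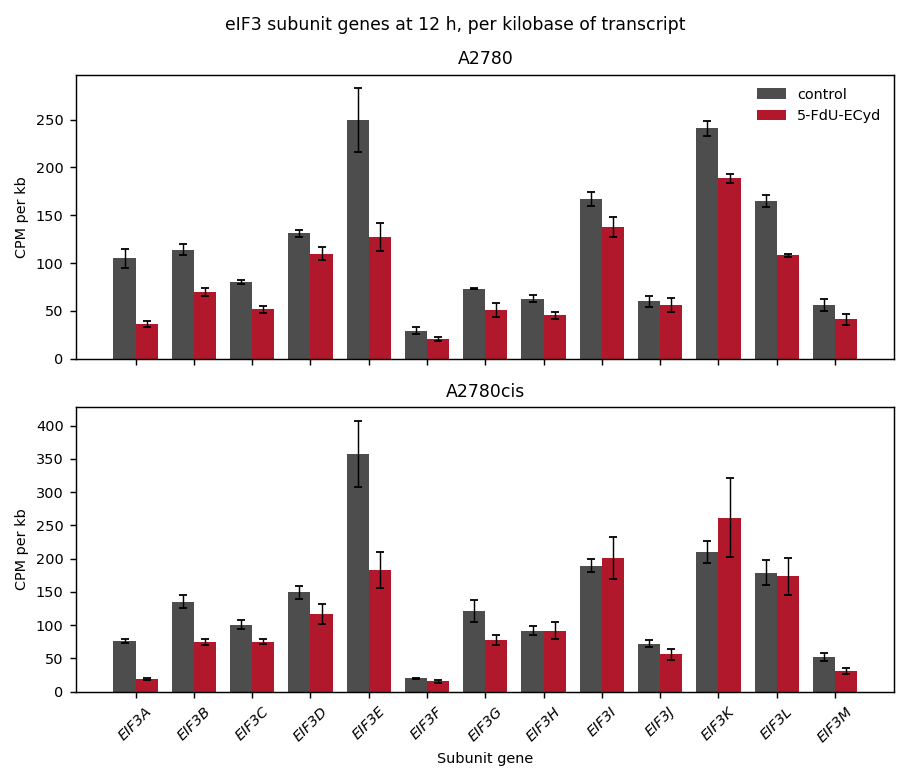
Bars give the mean level of each eIF3 subunit gene at 12 h in CPM per kilobase of canonical transcript (n = 3 per bar, error bars SD), control in grey and 5-FdU-ECyd in red. EIF3A falls in both lines, whereas EIF3H, EIF3I, EIF3K and EIF3L passed the test as lower in A2780 alone.

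All 7 genes of eIF4F and its helpers fell at 12 h in both lines, where 26.1% of all genes fell in A2780 and 28.9% in A2780cis. The medians of the 7 were -0.98 log2 FC for A2780 and -0.95 for A2780cis. With library size alone 6 were called lower in A2780, where EIF4H was not called, and 7 in A2780cis. EIF4E encodes the cap binding protein. Its level in A2780 was 143, 133 and 121 CPM in controls and 80.1, 58.9 and 63.4 CPM after 12 h (log2 FC = -0.97 ± 0.12, adjusted p = 1.36e-07). In A2780cis it was 139, 117 and 107 and 72.0, 58.6 and 57.2 CPM (log2 FC = -0.95 ± 0.12, adjusted p = 1.52e-07). It was the most lowered member at 6 h in A2780, with 192, 186 and 162 CPM in controls and 98.2, 104 and 113 CPM after treatment (log2 FC = -0.78 ± 0.12, adjusted p = 2.02e-05). The control level itself was lower at 12 h than at 6 h in both lines.

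The 2 scaffolds that bridge eIF4E and eIF3 differed in time. EIF4G3 had fallen at 6 h, to 77.6, 80.0 and 82.9 from 131, 129.5 and 113 CPM in A2780 (-0.64 ± 0.09, adjusted p = 9.07e-06) and to 93.6, 87.6 and 87.2 from 131, 159 and 117 CPM in A2780cis (-0.60 ± 0.09, adjusted p = 1.52e-05). At 12 h it was at 52.5, 49.3 and 48.7 against 133, 141 and 136 CPM in A2780 (log2 FC = -1.45 ± 0.09, adjusted p = 1.31e-12), and at 47.3, 50.0 and 46.7 against 117, 131 and 123 CPM in A2780cis (log2 FC = -1.36 ± 0.09, adjusted p = 3.32e-12). EIF4G1, the more abundant scaffold (95.9 against 20.3 CPM per kilobase in untreated cells), did not pass the test at 6 h (0.12 ± 0.13 and -0.18 ± 0.13), with overlapping groups. At 12 h it fell from 565, 597 and 653 to 266, 287 and 283 CPM in A2780 (log2 FC = -1.12 ± 0.13, adjusted p = 1.08e-07). In A2780cis it fell from 525, 663 and 706 to 246, 272 and 237 CPM (log2 FC = -1.33 ± 0.13, adjusted p = 5.12e-09). The EIF4G1 controls were themselves higher at 12 h than at 6 h, by 0.57 ± 0.13 in A2780 and 0.55 ± 0.13 in A2780cis, so part of the distance at 12 h lies in the controls.

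EIF4B, which stimulates the helicase, fell in both lines at both times. It fell from 720.0, 712 and 703 to 308, 269 and 267 CPM in A2780 (log2 FC = -1.34 ± 0.09, adjusted p = 8.15e-12) and from 488, 437 and 427 to 194, 157 and 191 CPM in A2780cis (log2 FC = -1.32 ± 0.09, adjusted p = 9.24e-12), and the difference between the lines was 0.02 ± 0.13. An antisense RNA, TNS2-AS1, covers 12.4% of its exon bases and had a log2 FC of -1.16 and -0.83 at 12 h; the strand setting of the counting is not given in the sources used here. EIF4A2, a helicase of eIF4F, fell at both times in both lines, with -0.60 ± 0.11 and -0.81 ± 0.11 log2 FC at 12 h. EIF4A1, the main helicase and the most abundant member per kilobase (863 CPM per kilobase in untreated cells), passed the test at 12 h alone. Its level was 1428, 1379.8 and 1440.2 CPM in A2780 controls and 778, 690.1 and 687 after treatment (log2 FC = -0.98 ± 0.11, adjusted p = 3.08e-08), and 1434, 1243 and 1224 and 877, 689 and 944 CPM in A2780cis (log2 FC = -0.64 ± 0.11, adjusted p = 1.5e-05). These reads cannot be assigned to EIF4A1 alone, since the readthrough gene SENP3-EIF4A1 and a lncRNA on the same strand cover 28.2% and 42.1% of its exon bases and were counted at 98.7% and 99.5% of its level. EIF4H, a relative of EIF4B in function, had the smallest change of the complex at 12 h (-0.30 ± 0.08 and -0.51 ± 0.08), in A2780 not called with library size alone (log2 FC -0.08, adjusted p = 0.318), and had risen at 6 h in A2780 (log2 FC = 0.22 ± 0.08, adjusted p = 0.0355), a call lost without any 1 library but control replicate 2 (adjusted p = 0.0615 to 0.164).

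**Figure D3:**
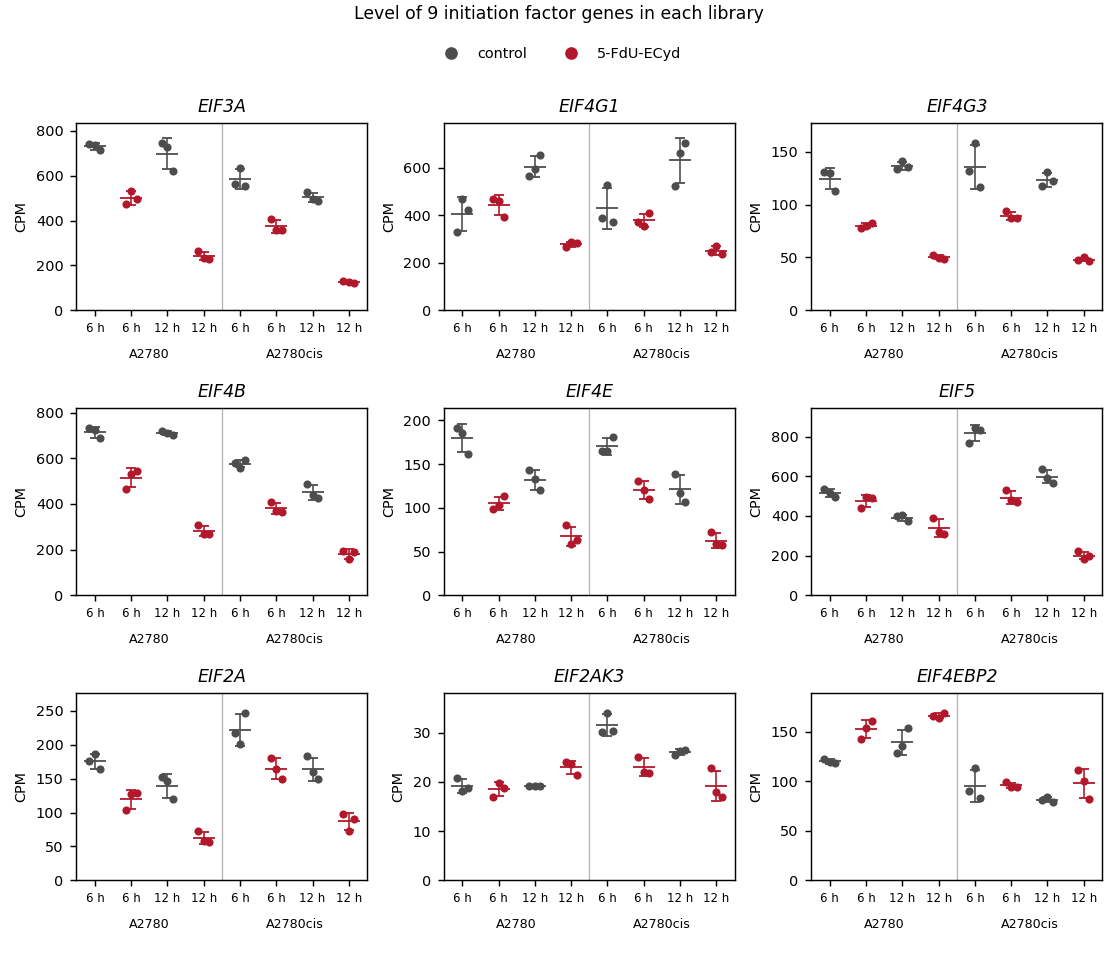
Each point is 1 library and bars give the mean ± SD (n = 3) in CPM for 9 members in the 8 groups, control in grey and 5-FdU-ECyd in red. EIF3A, EIF4G3, EIF4B and EIF4E are lower after treatment at both times in both lines, EIF4G1 at 12 h only, and EIF5 in A2780cis.

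Upstream sequences of 6 members are shown because the results turn on them: EIF4G1 and EIF4E fell, EIF4EBP2, the repressor of EIF4E, did not, and EIF2B2, EIF2D and EIF2AK4 (described with their complexes) changed differently in the 2 lines. Each is the 250 bases before a transcription start in RefSeq (GRCh38.p14), written 5′ to 3′ on the strand of the gene. Windows that touch an exon annotated in GENCODE are not shown, which leaves out EIF4B, EIF4G3 and EIF5. Capitals mark matches on either strand to any of 6 motifs: the E-box CACGTG, the ETS core CCGGAAG, the GC box GGGCGG, the CCAAT box CCAAT, the cyclic AMP element TGACGTCA and the TATA box TATAAA, none of which contains another.
EIF4E, chr4:98929134-98929383, minus strand: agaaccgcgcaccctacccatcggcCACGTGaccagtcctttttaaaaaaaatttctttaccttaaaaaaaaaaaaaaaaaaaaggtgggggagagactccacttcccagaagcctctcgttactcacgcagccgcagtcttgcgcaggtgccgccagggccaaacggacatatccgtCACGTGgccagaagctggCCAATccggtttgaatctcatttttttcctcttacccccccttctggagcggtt
EIF4EBP2, chr10:70403895-70404144, plus strand: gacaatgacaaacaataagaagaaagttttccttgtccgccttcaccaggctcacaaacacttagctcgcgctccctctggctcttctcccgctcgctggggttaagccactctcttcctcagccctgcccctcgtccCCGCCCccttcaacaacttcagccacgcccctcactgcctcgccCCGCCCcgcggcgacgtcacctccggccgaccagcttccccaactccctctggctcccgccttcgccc
EIF4G1, chr3:184314914-184315163, plus strand: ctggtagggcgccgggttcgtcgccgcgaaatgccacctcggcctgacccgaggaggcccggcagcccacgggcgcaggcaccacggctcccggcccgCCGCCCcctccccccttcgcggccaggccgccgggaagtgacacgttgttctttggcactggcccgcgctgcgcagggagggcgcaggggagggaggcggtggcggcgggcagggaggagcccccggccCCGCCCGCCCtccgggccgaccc
EIF2B2, chr14:75002671-75002920, plus strand: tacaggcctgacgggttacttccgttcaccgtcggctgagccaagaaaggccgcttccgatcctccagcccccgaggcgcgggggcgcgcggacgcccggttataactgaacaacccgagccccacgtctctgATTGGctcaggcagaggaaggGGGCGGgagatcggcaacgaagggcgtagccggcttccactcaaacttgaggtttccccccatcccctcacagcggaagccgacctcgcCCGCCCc
EIF2D, chr1:206612466-206612715, minus strand: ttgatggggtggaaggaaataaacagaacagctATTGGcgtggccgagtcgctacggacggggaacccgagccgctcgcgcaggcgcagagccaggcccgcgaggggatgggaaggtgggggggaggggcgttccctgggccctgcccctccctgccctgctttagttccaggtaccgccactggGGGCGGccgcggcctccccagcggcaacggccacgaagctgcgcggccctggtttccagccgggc
EIF2AK4, chr15:39933865-39934114, plus strand: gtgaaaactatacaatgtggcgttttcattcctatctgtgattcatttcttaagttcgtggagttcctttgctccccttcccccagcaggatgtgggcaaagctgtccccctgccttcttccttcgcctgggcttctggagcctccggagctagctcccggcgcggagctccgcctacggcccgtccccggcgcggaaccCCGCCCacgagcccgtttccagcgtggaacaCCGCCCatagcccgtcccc
Of these 6 windows, EIF4E alone had an E-box, with a CCAAT box beside it, and the other 5 had a GC box. EIF2B2 and EIF2D had a CCAAT box too. A further EIF4G1 window (chr3:184314356-184314605), not shown because it touches an exon, had an E-box and a GC box. RefSeq entries were matched for 46 of the 55 members, with 62 starts between them. The E-box was present in 12 of these 62 windows (19.4%), against 6.34% of all 35116 windows of the same length. The ETS core was present in 12 (19.4%, against 8.52%), the GC box in 40 (64.5%, against 42.6%) and the CCAAT box in 22 (35.5%, against 32.0%), while the TATA box was present in 2 (3.23%, against 10.7%) and the cyclic AMP element in 0 (against 1.65%). Windows of the same gene can overlap, and the members with an E-box include EIF4E and EIF4B, which fell in both lines, and EIF1B, which rose in A2780. The matches are a description of letters and say nothing of binding.

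The 3 relatives of eIF4 that were tested fell at 12 h in both lines, where 26.1% of all genes fell in A2780 and 28.9% in A2780cis. EIF4G2, which lacks the eIF4E site and serves cap-independent initiation, fell at 12 h from 1307, 1263 and 1277 to 892, 781 and 788 CPM in A2780 (log2 FC = -0.65 ± 0.09, adjusted p = 2.67e-06) and also in A2780cis (log2 FC -0.56 ± 0.09). EIF4A3, the helicase of the exon junction complex, fell as well (-0.59 ± 0.08 and -0.53 ± 0.08, adjusted p = 9.64e-07 and 4e-06). EIF4E2, a cap binding relative of eIF4E that represses translation, fell in both lines (-0.34 ± 0.09 and -0.31 ± 0.10), in A2780 not with library size alone (log2 FC -0.12, adjusted p = 0.156) and in A2780cis not without treated replicate 2 (adjusted p = 0.0554). EIF4E3 and EIF4E1B were not tested: EIF4E3 had at most 6 counts and EIF4E1B at most 1 count in any library.

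The proteins that bind eIF4E did not share 1 direction. EIF4EBP2, a repressor that releases eIF4E when phosphorylated, had 123, 119 and 118 CPM in the A2780 controls of 6 h and 143, 154 and 161 CPM after treatment (log2 FC = 0.34 ± 0.10, adjusted p = 0.0137). At 12 h it was at 129, 136 and 154 and 166, 164 and 169 CPM in A2780 (log2 FC = 0.26 ± 0.10, adjusted p = 0.0363), and at 80.7, 84.0 and 79.0 and 112, 100.0 and 82.5 CPM in A2780cis (log2 FC = 0.27 ± 0.10, adjusted p = 0.0253), where the groups overlapped. The call at 12 h was lost in A2780 without any 1 library but control replicate 3 (adjusted p = 0.0690 to 0.190) and in A2780cis without control replicate 1 or 3 or treated replicate 1 or 2 (0.0604 to 0.269), and that at 6 h without treated replicate 3 (0.0542). Without the filter on low counts both calls at 12 h were lost (0.109 and 0.126). EIF4EBP1, the best known repressor of eIF4E, fell at 12 h in A2780 from 97.5, 93.2 and 96.5 to 44.7, 60.0 and 58.7 CPM (log2 FC = -0.81 ± 0.19, adjusted p = 0.000646), and was at 60.1, 61.5 and 66.4 and 57.0, 48.7 and 63.7 CPM in A2780cis (log2 FC -0.15 ± 0.19). Its values at 6 h spread widely, with 44.4, 80.0 and 80.4 CPM in the A2780 controls. EIF4ENIF1, the shuttling protein that takes eIF4E into the nucleus, fell in all 4 comparisons, with log2 FC of -0.36 and -0.49 in A2780 and -0.58 and -0.67 in A2780cis. The decrease at 6 h in A2780 was not called without control replicate 2 (adjusted p = 0.0592). EIF4EBP3 was at 3.26 to 8.73 CPM and shares 73.2% of its exon bases with a readthrough gene counted at 130 CPM on average, so its decrease in A2780 (log2 FC = -0.66 ± 0.21, adjusted p = 0.00938; 0.0596 without treated replicate 3, 0.0734 with library size alone) is uncertain.

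With EIF4E lower and EIF4EBP2 not, their ratio shifted. The ratio of EIF4EBP2 to EIF4E in CPM per kilobase was 0.207, 0.208 and 0.237 in the A2780 controls of 6 h and 0.471, 0.481 and 0.461 after treatment. At 12 h it was 0.292, 0.331 and 0.413 and 0.67, 0.903 and 0.865. In A2780cis it was 0.177, 0.222 and 0.148 and 0.245, 0.255 and 0.279 at 6 h, and 0.188, 0.232 and 0.239 and 0.503, 0.553 and 0.467 at 12 h. In each of the 4 pairs the treated libraries were all above the controls. These members were singled out with their changes known, so the ratio is a description and no test of it is used. With EIF4EBP1 added to EIF4EBP2, the treated mean was 2.14 and 1.31 times that of the controls in A2780 at 6 h and 12 h, and 1.86 and 1.81 times in A2780cis. For this sum the A2780 groups of 12 h overlapped, with 2.29, 2.39 and 2.76 in controls and 2.31, 3.89 and 3.58 after treatment. In the other pairs they did not overlap. EIF4EBP1 was the more abundant of the 2 repressors in untreated cells (79.7 against 14.6 CPM per kilobase).

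**Figure D4:**
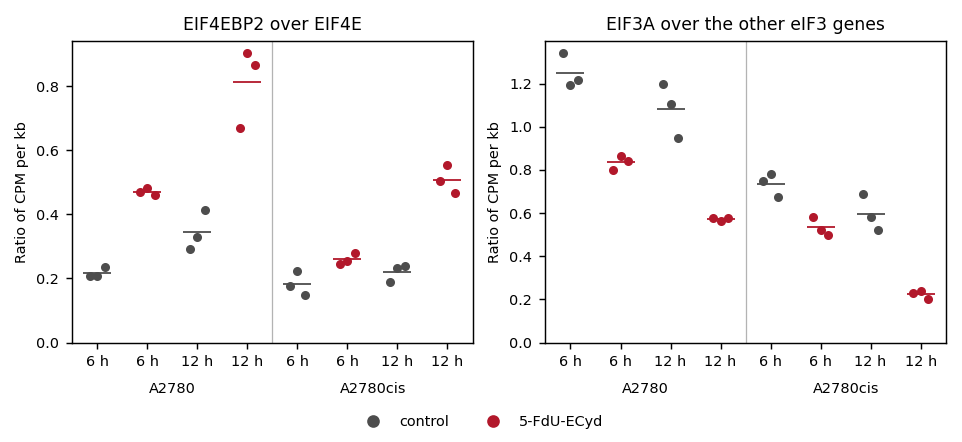
Each point is 1 library and the bar the group mean, as a ratio of CPM per kilobase of canonical transcript, control in grey and 5-FdU-ECyd in red. The EIF4EBP2 to EIF4E ratio lies higher and the EIF3A ratio lower in every treated library than in the controls of its line and time.

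EIF5 had the sharpest difference between the lines. EIF5 is the GTPase activating protein of eIF2 and lies on the plus strand of chromosome 14, 103333544 to 103345025 (GRCh38). In A2780cis its level was 769, 845 and 833 CPM in the controls and 528, 479.7 and 468 CPM after 6 h (log2 FC = -0.73 ± 0.10, adjusted p = 2.3e-06). At 12 h it was 635, 592 and 567 and 221, 182 and 196 CPM, 0.334 times the control level (log2 FC = -1.58 ± 0.10, adjusted p = 7.08e-13). In A2780 it was 538, 515 and 494 and 439, 493 and 492 CPM at 6 h (log2 FC -0.12 ± 0.10, adjusted p = 0.369) and 399, 402 and 374 and 389.7, 317 and 311 CPM at 12 h (-0.21 ± 0.10, adjusted p = 0.0667), where treated replicate 1 lay among the controls. The difference between the lines was -0.61 ± 0.13 at 6 h (adjusted p = 0.00959), the 1 member so called at that time, and -1.37 ± 0.14 at 12 h (adjusted p = 9.7e-08). Both calls held in all alternatives run. Untreated A2780cis had more EIF5 than untreated A2780 at both times (0.66 ± 0.10 and 0.61 ± 0.10), so that after 12 h of treatment the order of the lines was the reverse of that before it.

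None of the remaining late factors passed the interaction test. EIF5B, the GTPase of subunit joining, fell at 12 h from 366, 355 and 222 to 200.2, 162 and 153 CPM in A2780 (log2 FC = -0.87 ± 0.15, adjusted p = 1.52e-05) and from 412, 345 and 333 to 178, 153 and 211 CPM in A2780cis (log2 FC = -1.01 ± 0.15, adjusted p = 1.53e-06). Control replicate 3 of A2780 was low but above the treated libraries. At 6 h EIF5B passed the test in A2780cis (-0.42 ± 0.14, adjusted p = 0.0271), but not without control replicate 3 (0.0871) or treated replicates 2 (0.0694) or 3 (0.113), or with library size alone (0.0583). EIF5A, which carries hypusine and helps the ribosome through hard stretches, rose at 6 h in A2780 (log2 FC = 0.29 ± 0.10, adjusted p = 0.0374) and fell at 12 h (log2 FC = -0.36 ± 0.10, adjusted p = 0.00472; 0.246 with library size alone, where the log2 FC was -0.14). The earlier groups overlapped (506, 663 and 618 CPM in controls, 776, 760.96 and 649 CPM treated), and the call was lost without control replicate 1 (adjusted p = 0.262) or 3 (0.0514) or treated replicate 1 (0.158) or 2 (0.124). EIF6, which keeps the ribosomal subunits apart, fell in A2780 (log2 FC = -0.55 ± 0.14, adjusted p = 0.00124) and had a log2 FC of -0.15 ± 0.13 in A2780cis. Reads of EIF6 can also fall in a protein-coding gene on the same strand that covers 17.35% of its exon bases. That gene was counted at 33.0% of the EIF6 level, with log2 FC of -0.55 and -0.12. EIF5A2, the tissue-restricted paralog of EIF5A, did not pass the test with treatment in either line. EIF5AL1, a near copy of EIF5A that shares its reads, followed it at 12 h in A2780 (-0.37 ± 0.14), where its call was lost without control replicate 3 (adjusted p = 0.157) or treated replicate 1 (0.0601) or 3 (0.0854), or with library size alone (0.408).

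The response of the lines at 12 h was compared directly by the interaction of line and treatment. Of 53 members, 10 passed, 6 with a higher value in A2780cis (9.7% of all genes) and 4 with a lower one (14% of all genes). At 6 h, 1 member was lower (2.38% of all genes) and 0 were higher (0.692% of all genes; 0 with DESeq2). The share of members called at 12 h is near or under that of all genes in both directions. EIF2AK3 (-0.70 ± 0.15, adjusted p = 0.00155), EIF2AK4 (-0.48 ± 0.11, 0.00335) and EIF3A (-0.46 ± 0.13, 0.0104) joined EIF5 on the lower side. On the higher side were EIF3K (0.67 ± 0.20, adjusted p = 0.0175), EIF3L (0.57 ± 0.16, 0.0134), EIF3H (0.47 ± 0.14, 0.0154), EIF2B2 (0.47 ± 0.13, 0.0104), EIF2D (0.41 ± 0.12, 0.0124) and EIF2S3 (0.33 ± 0.12, 0.0497). No member of eIF4F passed, the largest difference there being that of EIF4A1 (0.34 ± 0.15, adjusted p = 0.104). Without treated A2780cis replicate 2 the higher side held 12 members, and without treated A2780cis replicate 1 the lower side held 7. Without treated A2780cis replicate 3, EIF3H (adjusted p = 0.0523) and EIF3K (0.0806) were not called. Without the filter on low counts, EIF2B2 (0.0521) and EIF2D (0.0985) were not called either, and EIF2S3 was called in 8 of its 20 alternatives.

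**Figure D5:**
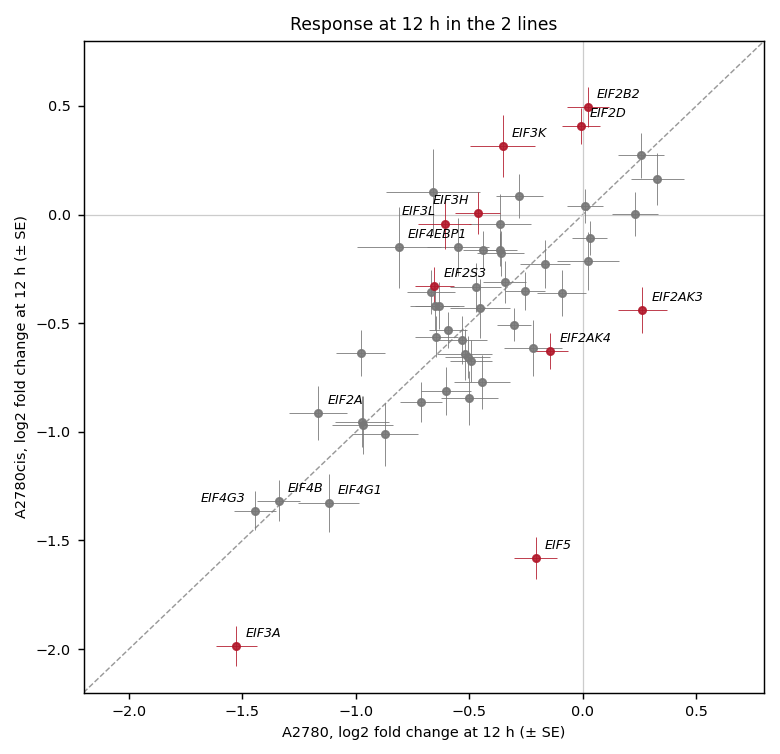
Each point is 1 of the 53 members, placed by its log2 fold change at 12 h in A2780 (x) and A2780cis (y), with bars of 1 SE and a dashed line of equal change. Red marks the 10 members whose change differed between the lines, with EIF5 farthest below the line.

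The untreated lines differed in about as large a share of these genes as of all genes. At 6 h, 21 members were higher in A2780cis (39.6%, against 25% of all genes) and 7 lower (13.2%, against 22.9%), and at 12 h 16 were higher (30.2%, against 25.4%) and 13 lower (24.5%, against 27.5%). Members were higher at both times in 15 cases (28.3%, against 19.5% of all genes) and lower at both in 7 (13.2%, against 20.4%). EIF3H was higher in A2780cis by 0.84 ± 0.10 and 0.54 ± 0.10, EIF3E by 0.67 ± 0.13 and 0.52 ± 0.13 and EIF2AK3 by 0.71 ± 0.11 and 0.44 ± 0.11 at 6 h and 12 h. EIF3A was lower in A2780cis (-0.32 ± 0.09 and -0.47 ± 0.09), as EIF3F was at 12 h (-0.55 ± 0.11), while 9 of the 14 eIF3 genes were higher at 6 h (6 with library size alone or without lncRNA and rRNA genes, 5 with only the compared groups). Of the genes that bind eIF4E, EIF4EBP1 (-0.88 ± 0.20 and -0.61 ± 0.19), EIF4EBP2 (-0.34 ± 0.10 and -0.78 ± 0.10) and EIF4ENIF1 (-0.37 ± 0.09 and -0.73 ± 0.09) were lower in A2780cis at both times. With library size alone, or without lncRNA and rRNA genes, 11 members were lower at 6 h.

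Controls also changed between 6 h and 12 h. In A2780, 5 members were higher at 12 h (16.6% of all genes) and 10 lower (10.3%). In A2780cis, 6 were higher (18%) and 26 lower (21.9%), with a median of -0.22 where that of all genes was -0.09. Of the members, 10 were lower at the later time in both lines (18.9%, against 7.92% of all genes), EIF4E, EIF5, EIF3E and EIF1AX among them, and 4 were higher in both (7.55%, against 12.1%), namely EIF3C, EIF3G, EIF4G1 and EIF5A. EIF4G1 (0.57 ± 0.13 and 0.55 ± 0.13) and EIF3G (0.55 ± 0.12 and 0.83 ± 0.12) had the larger increases. These counts were unsteady. In A2780 the lower members numbered 2 without control 6 h replicate 1, 6 without control 6 h replicate 2 and 3 without control 12 h replicate 3, and the higher ones 2, 8 and 2 without the same libraries and 2 without control 12 h replicate 2. In A2780cis the lower members numbered 12 without control 12 h replicate 3, 16 without control 12 h replicate 2 or control 6 h replicate 3, and 12 with library size alone. The higher ones numbered 3 without control 6 h replicate 1 or 3 or control 12 h replicate 2 or 3. With library size alone the share of higher among all calls of A2780cis was 74.6%, against 45.2% with TMM.

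The 41 other translation genes on the lists were read from the same fits. In A2780, 25 fell and 4 rose at 12 h, where 26.1% of all genes fell and 28.6% rose. In A2780cis 24 fell and 9 rose, where 28.9% of all genes fell and 31% rose. Among 18 partners of initiation factors, 13 fell in each line. LARP1, which binds mRNAs of the translation apparatus, fell with log2 FC of -1.18 and -1.60, DDX3X, a helicase of initiation, with -1.02 and -1.38, and GCN1, the activator of GCN2, with -0.90 and -1.06. PDCD4, an inhibitor of eIF4A, rose in both lines (0.58 and 1.23), by more in A2780cis (interaction 0.65, past the threshold). Of the 8 kinases and phosphatase subunits, RPTOR, the scaffold of mTORC1, fell at 12 h (-1.60 and -2.49, interaction -0.88, past the threshold), as did MTOR with -0.56 and -0.80. PPP1R15A, the subunit that directs dephosphorylation of eIF2 alpha, rose at both times in both lines, at 12 h by 1.57 and 1.00. MKNK1, a kinase of eIF4E, rose as well (0.97 and 0.39). Of the 2 enzymes that modify eIF5A, DOHH rose at 6 h in both lines (1.02 and 1.18). At 12 h DOHH fell in A2780cis (-0.63), with -0.39 in A2780. DOHH was at a low level, and its controls were higher at 12 h than at 6 h. Their means were 3.54 and 15.04 CPM at 6 h and 12 h in A2780cis, and 3.75 and 8.07 in A2780. Treated means were 8.03 and 9.69 CPM in A2780cis, and 7.53 and 6.11 in A2780. Part of the DOHH distance at 12 h therefore lies in the controls. DHPS fell at 12 h in A2780 (-0.33). Of 8 elongation genes, 5 fell in A2780, and in A2780cis 4 fell and 2 rose. EEF2 fell with -0.81 and -1.07, while EEF1B2 rose in A2780cis (0.50) and did not pass in A2780 (-0.16). The mean EEF2 of the controls was itself higher at 12 h than at 6 h (1172 against 634 CPM in A2780, 1915 against 892 in A2780cis). Treated EEF2 means at 12 h were 668 and 911 CPM, no lower than the control means of 6 h. Part of the EEF2 distance at 12 h therefore lies in the controls. GCN1 control means were higher at 12 h too (321 against 226 CPM in A2780, 356 against 237 in A2780cis). Of 5 release and recycling genes 3 fell in each line, GSPT1, the release factor eRF3a, with -1.34 and -1.27. The other 2 rose in A2780cis, PELO, a ribosome rescue factor, with 0.60 and GSPT2, a paralog of GSPT1, with 0.43, and did not pass in A2780 (0.08 and 0.12).

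The spans of the genes were set beside these changes. The members were divided at the median span from first to last annotated base, with 26 genes of 1.92 to 23.9 kb and 27 of 23.9 to 371 kb. At 6 h, 1 of the shorter and 6 of the longer members fell in A2780, and 3 and 10 in A2780cis. Among all protein-coding genes tested, cut at the same span, 7.08% of 5623 shorter and 22.02% of 8258 longer genes fell in A2780, and 8.47% and 28.2% in A2780cis. At 12 h, 19 of the 26 shorter members (73.1%) and 20 of the 27 longer ones (74.1%) fell in A2780, where 21.5% and 37.1% of the shorter and longer protein-coding genes did. In A2780cis 14 (53.8%) and 19 (70.4%) fell, where 19.3% and 45.2% of all did. Across the 53 members, Spearman's rho of span against log2 FC at 12 h was -0.22 in A2780 and -0.32 in A2780cis, and -0.23 and -0.38 across the 13881 protein-coding genes tested; genes share libraries and depth and are not independent replicates. The part of gene length in these results was not tested.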

How the data were processed

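RNA of 24 libraries (8 groups of 3) was read with a stranded total RNA kit. The deposited values are estimated counts per Ensembl gene, which the authors made from trimmed reads aligned to GRCh38.p7 with STAR 2.5.2b and counted with featureCounts. Fractional values made up 9.50% to 12.8% of each library's entries, and all counts were rounded here. Depth was 11077368 to 21901406 reads per library. The strand setting of the counting is not given in the sources used here, and the labels name single reads where the study's methods name paired ones.

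Genes were matched to GENCODE 44. Genes with low counts were dropped (filterByExpr of edgeR 4.0.16, minimum count 10, minimum total 15), which left 20240. Counts were scaled by TMM and fitted with 1 coefficient per group over all 24 libraries (16 residual degrees of freedom, R 4.3.3). Each comparison was tested with the quasi-likelihood test of edgeR, with Benjamini-Hochberg adjustment over all genes tested. An adjusted p of at most 0.05 was called a change, and errors of log2 FC are SE. Ratios between members were described with no test. On counts simulated for treatment of A2780 at 12 h, 138 of 200 changed genes and 8 of 19462 unchanged genes were called.

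Every member past the threshold could be named. Values per library are given for those with the largest change in each complex and for those whose response differed between the lines. Level per kilobase used the canonical transcript. The members and lists were chosen with earlier results of these data known. Alternatives were DESeq2 1.42.0 and its size factors, library size alone, no filter, unrounded counts, no lncRNA or rRNA genes, only the compared groups, a replicate block and leaving out each library.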

Additional observations from a re-analysis of the deposited data

Results flagged for a closer look

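The response to 5-FdU-ECyd differed between A2780cis and A2780 by the test of the interaction itself in 10 members at 12 h. A higher value in A2780cis was called in 11.3% of members and 9.7% of all genes, a lower one in 7.55% and 14%. The difference in log2 FC (A2780cis minus A2780) was -1.3732 for EIF5, -0.7007 for EIF2AK3, -0.4844 for EIF2AK4 and -0.4596 for EIF3A, all lower in A2780cis. It was 0.6691 for EIF3K, 0.5666 for EIF3L, 0.4741 for EIF2B2, 0.4699 for EIF3H, 0.4146 for EIF2D and 0.3262 for EIF2S3, all higher in A2780cis. At 6 h the difference was -0.6107 for EIF5, the 1 member called (1.89%, against 2.38% of all genes with a lower value). The causes of these differences were not tested.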

How the results depend on the processing

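The counts of lower members at 12 h stayed within 1.5 times of 39 in A2780 and 33 in A2780cis under every alternative run, and no named member reversed its direction where it was called. The following counts moved by more, and the causes were not tested. With library size alone, 8 members were higher at 12 h in A2780, 7 in A2780cis and 4 at 6 h in A2780cis, 9 had a lower interaction at 12 h, 11 were lower in untreated A2780cis at 6 h, and with time 10 were higher in untreated A2780 and 12 lower in untreated A2780cis. With the size factors of DESeq2, 1 member was higher at 6 h in A2780 and 3 were higher with time in untreated A2780. With the DESeq2 Wald test, 16 were lower with time in untreated A2780. Without the filter, 0 were higher at 12 h in A2780, 1 at 6 h in A2780cis, and 14 were lower with time in A2780cis. Without lncRNA and rRNA genes, 2 were higher at 6 h in A2780cis, 11 lower in untreated A2780cis at 6 h and 15 lower with time in A2780cis. With only the compared groups, 2 were higher at 6 h in A2780, 1 at 6 h in A2780cis, and 14 were lower with time in A2780cis. Leaving out 1 library gave 1 to 3 higher members at 6 h and 0 to 3 at 12 h in A2780, 0 to 1 at 6 h in A2780cis, 4 to 12 higher and 4 to 7 lower interactions at 12 h, 2 to 8 higher and 2 to 13 lower with time in A2780, and 3 to 6 higher and 12 to 25 lower with time in A2780cis. Deviations from the group mean correlated between -0.25 and 0.31 for treated and control samples of the same replicate number, line and time. With 3 libraries per group these values cannot decide whether the numbers pair the samples, and the main fits used no pairing. With the replicate block, 39 and 33 members were lower at 12 h, as without it, and 1 call was lost, with time in A2780cis. The share of higher among all calls also moved by over 10 points with library size alone (A2780cis at 6 h 47.0% to 61.4%, interaction at 12 h 41.0% to 27.0%, time in A2780 61.7% to 71.9%), and at the interaction of 6 h (22.5%) and with time in A2780cis (45.2%) without the filter (34.6%, 59.4%), without lncRNA and rRNA genes (34.0%, 58.3%) and with only the compared groups (33.4%, 61.8%). Without control 12 h replicate 3 that share was 73.2% with time in A2780. EIF4E3 and EIF4E1B had too few counts for a test at this depth.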
